A study of Mus musculus with 12 samples.

Results

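Expression of 10 genes of the Notch signalling pathway was followed across 3 cell types of the mouse dentate gyrus, namely the receptors Notch1 and Notch2, the ligands Dll1, Jag1 and Dner, the nuclear mediator Rbpj, and Hes1, Hes5, Hey1 and Hes6 of the HES and HEY family. They were taken as a list of names and matched by gene symbol, and all 10 were found among the 50600 genes of the count table. The cells came from mice of 6 to 9 weeks that carry Nestin-GFP, a reporter of neural stem cells and progenitors in which green fluorescent protein is driven by Nestin regulatory sequence. Live cells negative for CD31, CD45, O1 and O4, markers of endothelial cells, blood cells and oligodendrocytes, were sorted in lots of 50. Stem cells were positive for GFP and for GLAST, a glutamate transporter of astrocytes and stem cells encoded by Slc1a3. Progenitors were positive for GFP only, and astrocytes for GLAST only. Each cell type had 4 libraries, and all mice carried the reporter and received no treatment named in the labels. The study's text calls the libraries of a group biological replicates and speaks of a single mouse brain for each. The labels do not say which mouse gave which library, so libraries of different cell types could not be matched by mouse.

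Notch is a receptor that is activated by ligands on neighbouring cells. After ligand binding the receptor is cut by ADAM proteases and by gamma-secretase, and its intracellular part enters the nucleus, where it joins RBPJ on DNA and turns on genes of the HES and HEY family. HES proteins are repressors of proneural genes, and in the adult dentate gyrus the pathway is known for keeping stem cells from differentiating, while cells that start to become neurons carry ligands such as DLL1.

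Total counts were between 5357232 and 6253680 in astrocytes, between 9041498 and 12535028 in progenitors and between 5031166 and 10435711 in stem cells. Levels are given as CPM, the counts per 1000000 counts of a library after scaling by edgeR's TMM factors. A floor of 3 counts corresponded to 0.548 to 0.639 CPM in astrocytes, 0.206 to 0.277 CPM in progenitors and 0.308 to 0.557 CPM in stem cells, and it covers counting error only. All 10 genes were above this floor in every progenitor library, whereas 2 to 4 of them were at or under it in each astrocyte library and 1 or 2 in each stem cell library. Detection over all genes ran in the same order. Genes with at least 10 counts numbered 9430 to 11655 in astrocyte, 13368 to 14175 in stem cell and 16389 to 17015 in progenitor libraries. The study's text also calls the quality of the astrocyte cDNA suboptimal.

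The sort was checked against marker genes. Slc1a3 ranged from 3797 to 6158 CPM in astrocytes and from 6768 to 9249 CPM in stem cells, but it was also between 2235 and 3403 CPM in the GLAST-negative progenitors. Nes, the gene of the reporter's promoter, was at 0 in all 4 astrocyte libraries and in 3 of 4 stem cell libraries, with 0.521 CPM in stem cell library 2, and between 0.0835 and 19.96 CPM in progenitors. Thus the label of the stem cells rests on the sort and not on Nes transcripts, although the summed level of 10 markers of radial glia-like stem cells was 2402 to 3564 CPM there, above the 1242 to 2352 CPM of astrocytes and the 1199 to 1526 CPM of progenitors. Astrocyte libraries a and b held the highest sums of myelinating oligodendrocyte markers, 3205 and 1373 CPM against at most 821.0 CPM in all other libraries. Astrocyte libraries c and d, at 617.7 and 337.4 CPM, were within the 249.1 to 821.0 CPM of the other cell types. Neuronal markers were highest in astrocyte library a, 1321 CPM against at most 457.2 CPM in the 11 others. Of these lists, Mbp, a myelin protein gene, and Snap25, a synaptic gene, were higher in astrocytes than in progenitors by log2 fold changes of 3.85 and 1.85 (edgeR adjusted p = 0.026 and 0.042). No other gene of these lists passed this test. Cnp and Mag of the myelin list and Prox1, Rbfox3 and Gad1 of the neuronal list had lower means in astrocytes. For Prox1 the means were 43.34 CPM in astrocytes and 165.3 CPM in progenitors, without overlap (edgeR adjusted p = 0.15). Progenitor libraries likewise held markers of more than one cell type. All 8 markers of oligodendrocyte precursors and 8 of 10 markers of intermediate progenitors and neuroblasts had at least 10 counts in every progenitor library. The former summed to 2147 to 3617 CPM in progenitors, against 43.5 to 320.6 CPM in astrocytes and 76.9 to 144.1 CPM in stem cells. For the latter, the sums were 1055 to 1666 CPM in progenitors, 7.85 to 348.5 CPM in astrocytes and 19.3 to 23.6 CPM in stem cells. Markers of mural cells, which wrap blood vessels, summed to 301.2 to 2820 CPM in progenitors and to at most 198.3 CPM elsewhere. The part of these other cells in the results that follow was not tested, and in 50 pooled cells a smaller number of cells that use a gene cannot be told apart from less RNA per cell.

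**Figure D1:**
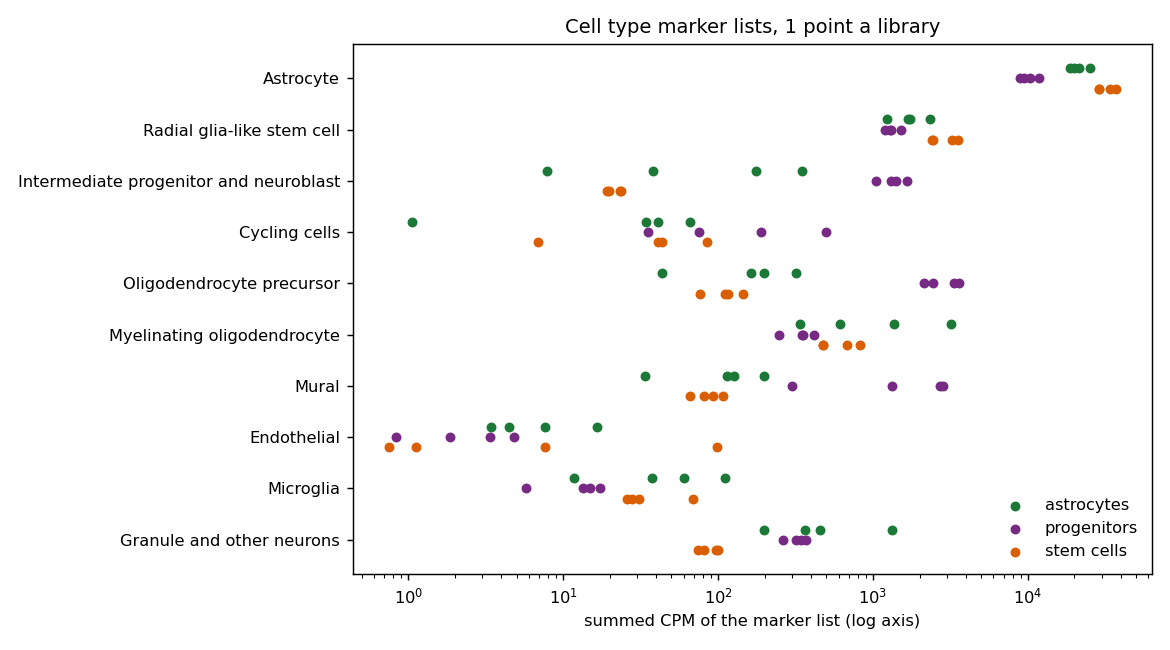
Summed CPM of 10 marker lists (log axis) in each of the 12 libraries, 1 point a library, coloured by cell type. Oligodendrocyte precursor, neuroblast and mural lists were highest in the progenitor libraries, at 2147 to 3617, 1055 to 1666 and 301.2 to 2820 CPM.

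Promoter sequences were looked up for the genes on which the results turn. RefSeq windows on GRCm38.p6 held the 250 bases before the transcription start for 8 of the 10 genes, in 11 windows. Hes1 and Hey1 had no window and were not searched. The 11 windows were searched on both strands for GTGGGAA and GTGAGAA, cores bound by RBPJ. They were also searched for CACNAG (N box) and CACGNG (class C site), which HES proteins bind. The Hes5 window is shown because Hes5 is the classical target of the pathway in neural stem cells, and the RBPJ cores are in capitals. The windows of Dll1 and Notch2 are shown because these genes differed between cell types, and the N box and class C letters are in capitals. Hes5 lies on the forward strand at chr4:154960673-154960922, Dll1 on the reverse strand at chr17:15376933-15377182 and Notch2 on the forward strand at chr3:98013288-98013537, all printed 5′ to 3′ on the gene's strand.
Hes5: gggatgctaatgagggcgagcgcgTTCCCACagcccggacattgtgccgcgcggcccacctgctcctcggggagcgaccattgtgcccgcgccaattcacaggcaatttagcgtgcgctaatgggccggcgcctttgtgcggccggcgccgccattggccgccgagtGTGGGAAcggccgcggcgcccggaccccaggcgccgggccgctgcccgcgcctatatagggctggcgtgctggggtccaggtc
Dll1: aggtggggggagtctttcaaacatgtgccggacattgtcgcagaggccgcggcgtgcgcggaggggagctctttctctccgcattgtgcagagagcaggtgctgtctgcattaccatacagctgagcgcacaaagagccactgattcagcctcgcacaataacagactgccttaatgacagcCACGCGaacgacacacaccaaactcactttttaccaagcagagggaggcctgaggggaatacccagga
Notch2: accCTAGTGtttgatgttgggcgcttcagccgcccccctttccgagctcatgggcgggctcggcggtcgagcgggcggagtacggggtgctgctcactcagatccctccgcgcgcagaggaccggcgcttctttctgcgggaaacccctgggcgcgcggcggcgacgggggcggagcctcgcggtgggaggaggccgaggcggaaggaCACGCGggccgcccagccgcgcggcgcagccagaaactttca
The Hes5 window held 2 matches in opposite orientations, TTCCCAC starting at -226 and GTGGGAA starting at -83 relative to the start base, counted as 0. Among the 8 genes searched, the only other one with an RBPJ core was Dner, with GTGAGAA at -11. GTGGGAA was found in 5.42% and GTGAGAA in 3.83% of 32851 windows of the same length. Dll1 had the class C site CACGCG at -68, and its other RefSeq start had CACGGG at -105. In Notch2 the N box read CTAGTG at -247 and the class C site CACGCG at -42. These short motifs are common, as N boxes were in 36.7% and class C sites in 23.5% of all windows. A match describes letters in a window and does not show binding.

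Of the 10 genes, 2 differed between astrocytes and progenitors, 2 between progenitors and stem cells and none between astrocytes and stem cells. The genes were Notch2 and Dll1 in both cases. Notch2 was highest in astrocytes and lowest in progenitors, and Dll1 was detected in progenitors only. Each pair of cell types was tested with edgeR's quasi-likelihood test on genes that reached 10 counts in 4 or more of its 8 libraries, and p-values were adjusted by the Benjamini-Hochberg method. Of all genes tested, 8.63% were called in astrocytes against progenitors and 8.6% in progenitors against stem cells, beside which the 2 of 10 genes stand. By direction, 2.45% of all genes were higher in astrocytes and 6.18% in progenitors in the first comparison, and 4.95% were higher in progenitors and 3.66% in stem cells in the second. For astrocytes against stem cells the background was 0.0468%, 6 of 12831 genes, and 9 of the 10 genes could be tested. None of the 9 had an unadjusted p under 0.05, and DESeq2 called 0 of them as well. The first 2 comparisons share the progenitor libraries, the last 2 the stem cell libraries, and the first and last the astrocyte libraries.

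**Figure D2:**
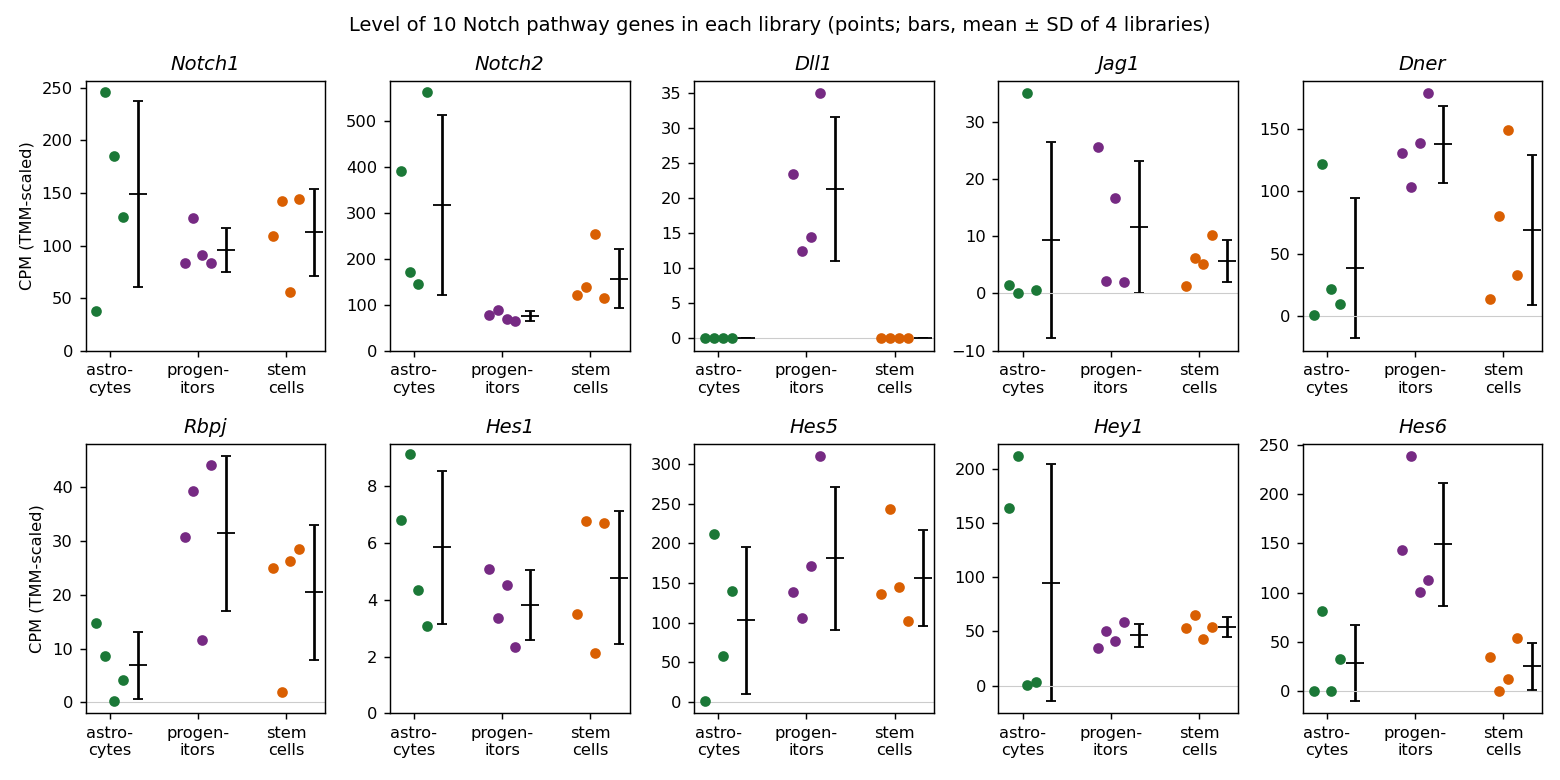
CPM of each of the 10 genes in the 12 libraries, with 1 point a library and, beside them, the mean ± SD of the 4 libraries of a cell type. Dll1 had 12.4 to 35.0 CPM in progenitors and 0 elsewhere, and Notch2 did not overlap between progenitors and the other cell types.

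Notch2 (chr3:98013527-98150361, forward strand) encodes a receptor that is found in glia and stem cells of the adult brain. It measured 391.1, 171.0, 146.4 and 562.8 CPM in astrocyte libraries a to d, 78.4, 88.0, 69.9 and 63.9 CPM in progenitor libraries a to d, and 122.3, 137.9, 253.4 and 114.6 CPM in stem cell libraries 1 to 4. All 8 libraries of astrocytes and stem cells were above all 4 libraries of progenitors, while astrocytes and stem cells overlapped. Means were 317.8 ± 196.9 CPM in astrocytes, 157.0 ± 65.0 CPM in stem cells and 75.05 ± 10.5 CPM in progenitors (SD, n = 4 each). Astrocytes exceeded progenitors by a log2 fold change of 2.07 (SE 0.48, edgeR adjusted p = 0.022). Progenitors were below stem cells with a log2 fold change of -1.10 (SE 0.28, edgeR adjusted p = 0.039). The astrocyte to stem cell difference of 1.01 did not pass the test (95% interval -0.08 to 2.09, edgeR adjusted p = 0.58). Among all genes tested, 5.84% were higher in astrocytes than in progenitors without overlap, and 7.5% were higher in stem cells than in progenitors without overlap. Both calls were near the threshold. The call against astrocytes was kept with each astrocyte library left out and lost with each progenitor library left out (edgeR adjusted p between 0.058 and 0.08), and it was lost without a count filter (edgeR adjusted p = 0.055) and with at least 10 counts asked of every library (edgeR adjusted p = 0.054). The call against stem cells was lost with each progenitor library left out (0.077 to 0.13), without a count filter (0.069), with all 12 libraries in one fit (0.36) and without stem cell library 2 (0.051) or 3 (0.062), all edgeR adjusted p-values, and the log2 fold change without library 3 was -0.77. Several marker lists also differed between these cell types. Astrocyte markers summed to 18670 to 25320 CPM in astrocytes, 28750 to 37180 CPM in stem cells and 8917 to 11820 CPM in progenitors, an order unlike that of Notch2. Markers of myelinating oligodendrocytes (medians 995.4, 580.6 and 350.6 CPM in astrocytes, stem cells and progenitors) and of microglia (48.9, 29.4 and 14.1 CPM) had the order of Notch2. Among astrocyte libraries a to d, the microglia markers summed to 60.5, 11.7, 37.3 and 110.7 CPM and were highest in a and d, as Notch2 was. Ptprc of the microglia list was at 0 in all 12 libraries. P2ry12 of the microglia list had another order, with means of 31.06 CPM in stem cells and 9.406 CPM in astrocytes. The myelinating oligodendrocyte markers summed to 3205, 1373, 617.7 and 337.4 CPM in astrocyte libraries a to d. They were lowest in d, where Notch2 was highest. The part of these cells in the Notch2 difference was not tested.

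Notch1 (chr2:26457903-26516663, reverse strand), the receptor most often linked to stem cell upkeep, was present in every library. It measured 38.1, 246.0, 185.5 and 127.0 CPM in astrocytes, 83.3, 126.1, 90.5 and 83.2 CPM in progenitors, and 109.2, 141.9, 55.5 and 144.1 CPM in stem cells. The 3 cell types overlapped, and the spread within astrocytes, from 38.1 to 246.0 CPM, covered all other libraries. No comparison passed the test, and the tightest was progenitors over stem cells with a log2 fold change of -0.28 (95% interval -0.97 to 0.42, edgeR adjusted p = 0.70). Levels of different genes were compared per kb of exonic length. This length takes all annotated exons of a gene together, so the comparison is rough where transcripts of a gene differ. Per kb, Notch2 had a mean of 29.5 CPM in astrocytes against 10.5 CPM for Notch1. In progenitors these levels per kb were 6.96 CPM and 6.73 CPM, and in stem cells 14.6 CPM and 7.92 CPM.

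Dll1 (chr17:15367354-15376872, reverse strand) encodes Delta-like 1, a membrane ligand that activates Notch on neighbouring cells. It had 343, 149, 157 and 407 counts in progenitor libraries a to d, or 23.5, 12.4, 14.5 and 35.0 CPM, and 0 counts in all 8 libraries of astrocytes and stem cells. The mean in progenitors was 21.37 ± 10.3 CPM (SD, n = 4). With the floor of 3 counts in each library at 0, Dll1 was at least 35.7-fold higher in progenitors than in astrocytes (edgeR adjusted p = 0.016) and at least 52.4-fold higher than in stem cells (edgeR adjusted p = 0.0034). These folds set the progenitor mean against the mean floor, so they do not cover the spread of the progenitor libraries. The study's text holds that a gene high in 1 cell type and too noisy in another cannot be properly tested. Genes higher in progenitors without overlap made up 15.2% of those tested against astrocytes and 11.8% against stem cells. Dll1 could not be tested between astrocytes and stem cells, since neither had a count. It was called in every alternative in which it passed the count filter, with edgeR adjusted p-values of 0.0173 to 0.0498 against astrocytes and 0.00506 to 0.02003 against stem cells when a library was left out. An opposite-strand gene, A930024N18Rik, shares 20.5% of the exonic bases of Dll1, and the counting did not use strand. A930024N18Rik had 0.131 to 0.416 counts per Dll1 count in the 4 progenitor libraries and none in the other 8 libraries, so that reads of the 2 genes cannot be fully told apart.

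Jag1 (chr2:137081456-137116644, reverse strand), the gene of the ligand Jagged1, was low and uneven. It measured 1.49, 0, 34.96 and 0.613 CPM in astrocytes, 25.6, 2.09, 16.6 and 2.06 CPM in progenitors, and 1.23, 6.13, 5.13 and 10.2 CPM in stem cells. A single astrocyte library and a pair of progenitor libraries carried most of the signal, and all cell types overlapped. The 2 progenitor libraries with high Jag1, a and c, also had the highest summed mural markers, 2820 and 2720 CPM against 301.2 and 1337 CPM in b and d, but astrocyte library c, with the highest Jag1 of all, had the lowest mural sum of the 12 libraries, 33.6 CPM. The part of mural cells was not tested. The intervals of its differences were wide, with a log2 fold change of -0.29 for astrocytes over progenitors (95% interval -4.11 to 3.52, edgeR adjusted p = 0.96). This difference changed sign when astrocyte library a, b or d or progenitor library a was left out.

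Dner (chr1:84369839-84696221, reverse strand), a transmembrane protein of neurons that is counted among the non-canonical Notch ligands, was more even than Dll1 and Jag1 in progenitors. It had 130.6, 103.9, 138.9 and 179.0 CPM there, 0.426, 122.0, 21.3 and 9.19 CPM in astrocytes and 13.9, 80.1, 149.5 and 33.1 CPM in stem cells. One library of astrocytes and 1 of stem cells reached the progenitor range. For astrocytes over progenitors the log2 fold change was -1.84 (SE 1.14, edgeR adjusted p = 0.45) and for progenitors over stem cells 0.96 (SE 0.59, edgeR adjusted p = 0.41), neither of which passed. Per kb, Dner had the highest mean level of Dll1, Jag1 and Dner in each cell type, with 28.9 CPM in progenitors, 14.5 CPM in stem cells and 7.99 CPM in astrocytes. Dll1 had 5.07 CPM per kb in progenitors, and Jag1 between 0.974 and 1.99 CPM per kb over the 3 cell types.

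Rbpj (chr5:53466152-53657362, forward strand) encodes the DNA-binding protein through which the cut receptor acts. Its level was 14.7, 8.59, 0.198 and 4.09 CPM in astrocytes, 30.8, 39.3, 11.5 and 44.2 CPM in progenitors, and 25.0, 1.82, 26.4 and 28.6 CPM in stem cells. Progenitor library c was below astrocyte library a, so that these groups overlapped, as did the others. No difference passed, the astrocyte to progenitor log2 fold change being -2.21 (95% interval -4.78 to 0.36, edgeR adjusted p = 0.35).

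Hes5 (chr4:154960923-154962371, forward strand), a repressor that is the main Notch target in neural stem cells, had the highest level per kb of the 10 genes in each cell type. Mean levels per kb were 132.9 CPM in progenitors, 114.7 CPM in stem cells and 75.35 CPM in astrocytes. Without this correction, it measured 138.0, 105.5, 170.8 and 310.4 CPM in progenitors and 135.6, 243.2, 144.7 and 101.8 CPM in stem cells. Astrocytes had 0.639, 212.4, 58.1 and 139.7 CPM, so that library a was at the floor with 3 counts while b and d were within the range of the other cell types. Progenitors and stem cells overlapped fully, with a log2 fold change of 0.18 (95% interval -0.63 to 0.99, edgeR adjusted p = 0.85), which bounds the difference at about a doubling in either direction. For astrocytes over progenitors the log2 fold change was -0.81 (95% interval -3.13 to 1.51, edgeR adjusted p = 0.77).

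The opposite-strand gene Gm20421 shares 31.8% of the exonic bases of Hes5. In the 11 libraries with more than 3 Hes5 counts it had between 0.343 and 0.467 counts per Hes5 count (median 0.399). Of 16119 genes compared over the 12 libraries, Gm20421 was the one whose log2(CPM + 1) was most like that of Hes5, with Pearson's r of 0.999. Since counting did not use strand, reads of the shared bases cannot be assigned to one of the genes.

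**Figure D3:**
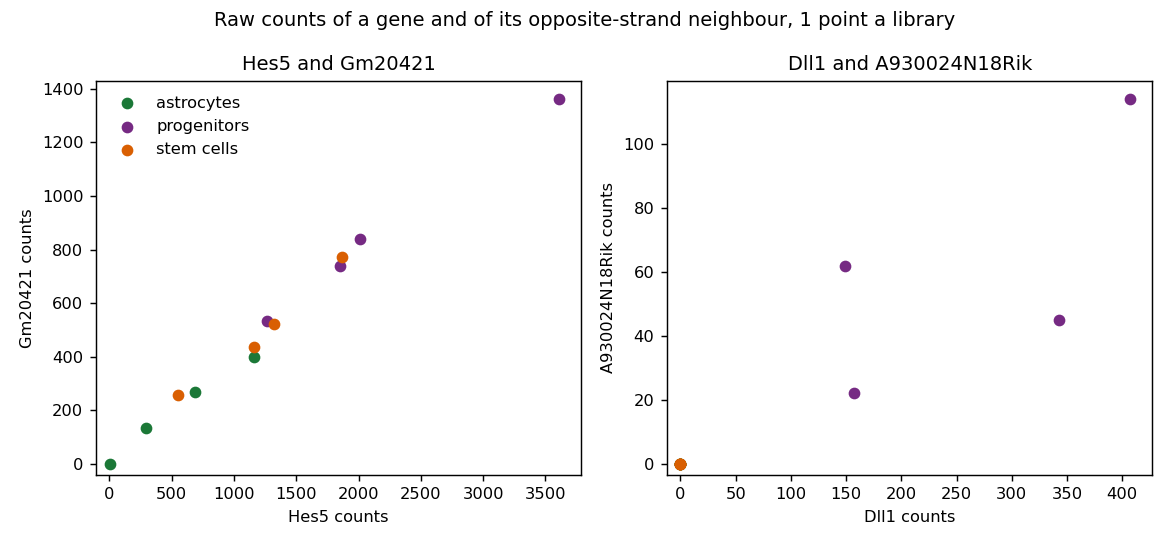
Raw counts of Hes5 (left) and Dll1 (right) on the horizontal axis and of the opposite-strand gene that overlaps each on the vertical axis, 1 point a library. Gm20421 stayed between 0.343 and 0.467 counts per Hes5 count in 11 libraries, and A930024N18Rik was at 0 in all 8 libraries without Dll1.

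Hes1 (chr16:30064384-30067796, forward strand), a repressor of the same family that also responds to other pathways, was low throughout. It measured 6.82, 9.13, 4.35 and 3.06 CPM in astrocytes, 5.08, 3.34, 4.53 and 2.32 CPM in progenitors, and 3.49, 6.78, 2.13 and 6.69 CPM in stem cells, with 15 to 74 counts a library. The cell types overlapped, and log2 fold changes were between -0.36 and 0.61 with edgeR adjusted p-values of 0.80 to 0.97. Per kb, the mean Hes1 level was 1.87 CPM in progenitors and 2.34 CPM in stem cells, where Hes5 was at 132.9 and 114.7 CPM.

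Hey1 (chr3:8663359-8667256, reverse strand), the gene of a related repressor, was even in the GFP-positive cells. It had 34.8, 50.3, 41.5 and 58.6 CPM in progenitors and 53.1, 65.6, 43.4 and 53.9 CPM in stem cells. Astrocytes split into 2 libraries at 163.8 and 211.7 CPM (a and b) and 2 at 0.593 and 3.27 CPM (c and d), so that none was within the range of the other cell types. Astrocyte libraries a and b also had the higher sums of myelinating oligodendrocyte markers (3205 and 1373 CPM, against 617.7 and 337.4 CPM in c and d) and of neuronal markers (1321 and 457.2 CPM, against 365.0 and 197.1 CPM), and the part of these cells was not tested. The progenitor to stem cell log2 fold change was -0.26 (95% interval -0.90 to 0.38, edgeR adjusted p = 0.70), and that of astrocytes over progenitors was 1.02 with a 95% interval from -1.84 to 3.88 (edgeR adjusted p = 0.76).

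Hes6 (chr1:91411483-91414038, reverse strand) encodes a family member that opposes HES1 and favours neuronal differentiation. Its levels were 143.5, 238.6, 100.3 and 113.3 CPM in progenitors, 0.213, 81.8, 0 and 32.9 CPM in astrocytes and 34.4, 0.130, 12.8 and 54.0 CPM in stem cells. All 4 progenitor libraries were above the 8 others, yet the spread in the latter was large and the difference did not pass. Progenitors over stem cells had a log2 fold change of 2.51 (SE 0.97, 95% interval 0.33 to 4.68, unadjusted p = 0.028, edgeR adjusted p = 0.16). Without stem cell library 2, which had 1 count, the log2 fold change was 2.09 and passed (edgeR adjusted p = 0.04). Astrocytes over progenitors had a log2 fold change of -2.37 (SE 1.49, edgeR adjusted p = 0.46). Hence Notch2, Dll1 and Hes6 were the genes whose libraries did not overlap, 3 of 10 in both comparisons with progenitors, against 21.0% of all genes for astrocytes and 19.3% for stem cells. Between astrocytes and stem cells 0 of 9 genes were without overlap, against 9.97% of all genes (3.69% with astrocytes higher, 6.28% with stem cells higher).

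**Figure D4:**
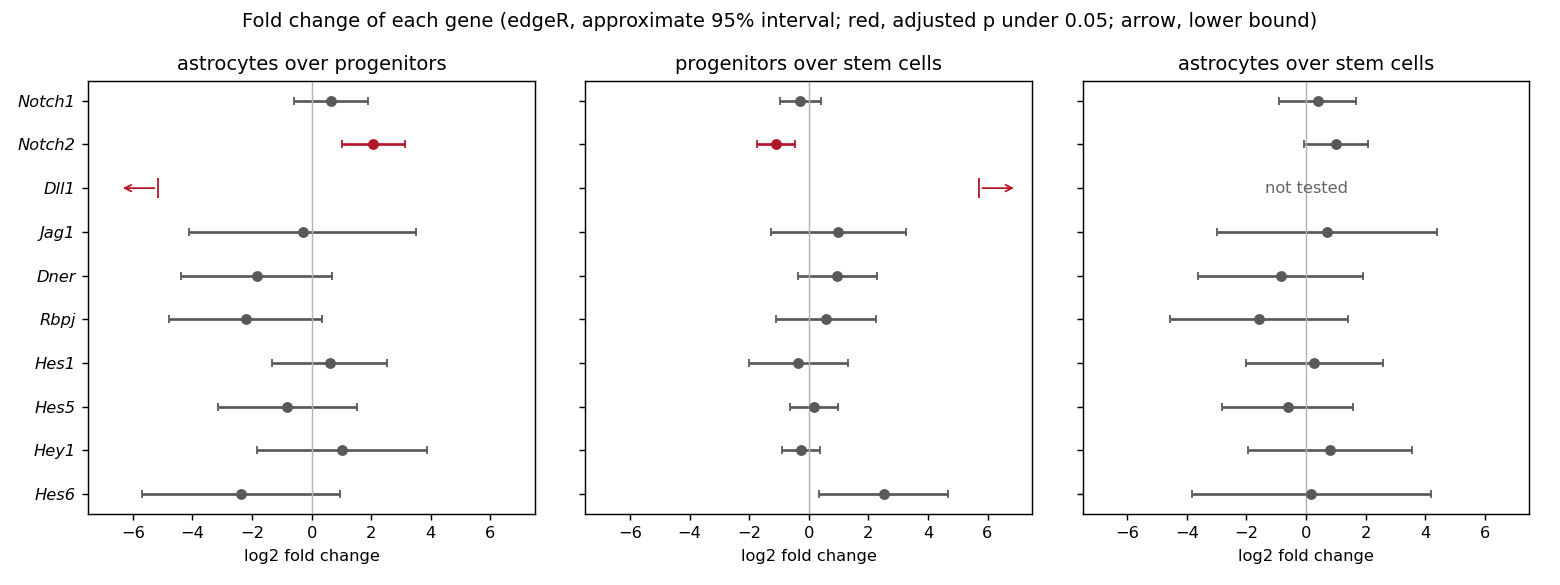
Log2 fold change of the 10 genes in the 3 comparisons (edgeR), with approximate 95% intervals, where red marks an adjusted p under 0.05 and an arrow a lower bound. Notch2 and Dll1 are red in both comparisons with progenitors, and between progenitors and stem cells the intervals of Hes5 and Hey1 ran from -0.63 to 0.99 and from -0.90 to 0.38.

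In order of their mean levels per kb, the 10 genes began with Hes5 in every cell type. In progenitors Hes6 (82.4 CPM), Dner (28.9 CPM), Hey1 (14.2 CPM), Notch2 (6.96 CPM), Notch1 (6.73 CPM), Dll1 (5.07 CPM), Rbpj (2.47 CPM), Jag1 (1.99 CPM) and Hes1 (1.87 CPM) followed. In stem cells the order after Hes5 was Hey1 (16.5 CPM), Notch2 (14.6 CPM), Dner (14.5 CPM), Hes6 (14.01 CPM), Notch1 (7.92 CPM), Hes1 (2.34 CPM), Rbpj (1.61 CPM) and Jag1 (0.974 CPM). The stem cell levels of Hey1, Notch2, Dner and Hes6 differed by less than the SD of Dner or Hes6 over the libraries. The median log2 fold change of the genes tested was -0.55 for astrocytes over progenitors, 0.38 for progenitors over stem cells and 0.28 for astrocytes over stem cells, where the medians over all genes were 0.03, 0.04 and 0.14.

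The other genes of the pathway were followed in a list of 69. Against progenitors, astrocytes had 1 of 56 tested genes higher and 4 lower. Progenitors had 4 of 57 tested genes higher than stem cells and 0 lower, and 0 of 49 differed between astrocytes and stem cells. Set beside the directional shares of all genes given above, these were near the background. In the last comparison 4 of the 49 had an unadjusted p under 0.05, against 1226 of all 12831 genes, and DESeq2 called 2 of the list and 635 of all genes, so neither count stands above the background. The medians of the list were 0.17, -0.07 and 0.2 in the 3 comparisons.

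Of the 3 other canonical ligand genes, Dll3 and Dll4 had counts in progenitors only, as Dll1 did. Dll3, a Delta-like protein that acts mainly inside the cell, had 4.595, 8.10, 1.85 and 15.7 CPM in progenitors and 0 counts in all other libraries. It was at least 12.6-fold higher in progenitors than in astrocytes (edgeR adjusted p = 0.019) and at least 18.5-fold higher than in stem cells (edgeR adjusted p = 0.013). Dll4, which failed the count filter, was likewise at 0 in astrocytes and stem cells and between 0.0924 and 9.77 CPM in progenitors. Mfng, the gene of Manic fringe, a glycosyltransferase that changes how receptors respond to ligands, had 12.6, 52.8, 6.28 and 36.6 CPM in progenitors. It had no count in astrocytes and 1 count in all stem cell libraries together, and was at least 45.3-fold higher in progenitors than in astrocytes (edgeR adjusted p = 0.016) and at least 66.4-fold higher than in stem cells (edgeR adjusted p = 0.0027). Lfng, the gene of Lunatic fringe, had 4.44 to 10.6 CPM in progenitors and 9.13 to 36.5 CPM in stem cells, with no call (edgeR adjusted p = 0.34).

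Cntn1 and Cntn6 encode contactins, adhesion molecules of neurons and oligodendrocyte lineage cells that have been described as Notch ligands. Cntn1 had 411.4 to 690.1 CPM in progenitors, 43.1 to 228.7 CPM in astrocytes and 59.2 to 276.9 CPM in stem cells, without overlap of progenitors and the others. Astrocytes over progenitors gave a log2 fold change of -2.35 (SE 0.55, edgeR adjusted p = 0.024) and progenitors over stem cells one of 1.90 (SE 0.42, edgeR adjusted p = 0.02). Cntn6 had 19.4 to 48.7 CPM in progenitors and no count in astrocytes, a difference of at least 58.5-fold (edgeR adjusted p = 0.014). Stem cells had 21.96, 0, 4.25 and 0 CPM, and that difference did not pass (log2 fold change 2.38, edgeR adjusted p = 0.40). The progenitor libraries that held these genes were also those with the markers of oligodendrocyte precursors, at 2147 to 3617 CPM, and of neuroblasts, at 1055 to 1666 CPM, and the part of these cells in the levels of Dll1, Dll3, Mfng and the contactins was not tested.

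Neurod1, a proneural gene that HES proteins repress, was at least 524-fold higher in progenitors than in stem cells (edgeR adjusted p = 5.6e-05). It measured 198.5, 318.3, 86.9 and 250.9 CPM in progenitors and at most 0.308 CPM in stem cells, while astrocytes had 116.7, 0, 0 and 1.23 CPM. Neurod1 also stands in the list of neuroblast markers. Among nuclear cofactors, Ncor1, a corepressor, had 577.0, 388.1, 552.1 and 356.0 CPM in astrocytes and 90.0, 172.7, 89.9 and 89.6 CPM in progenitors, a log2 fold change of 2.08 (SE 0.35, edgeR adjusted p = 0.012). It was the 1 of 13 corepressors that passed. All 10 genes of the cleavage machinery, among them the ADAM proteases and gamma-secretase, were tested between astrocytes and progenitors and 0 were called, with 1 at an unadjusted p under 0.05. Over all genes, 8.63% were called and 2792 of 14806 had such a p, so 10 genes are too few to set the cleavage genes apart from the rest.

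**Figure D5:**
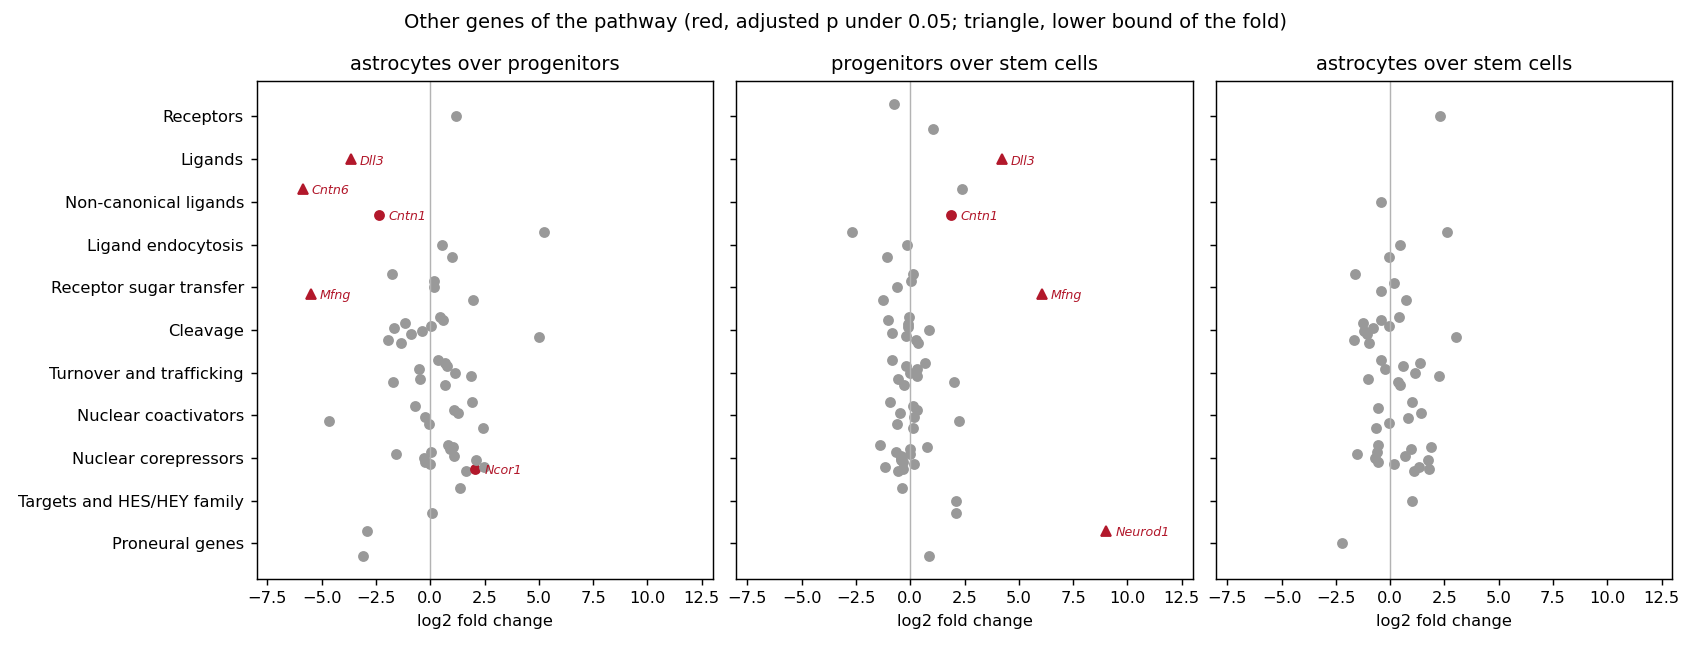
Log2 fold change of the tested genes of the 69-gene pathway list by role in the 3 comparisons, where red marks an edgeR adjusted p under 0.05 and a triangle a lower bound. Dll3, Mfng and Cntn1 were higher in progenitors than in both other cell types, Cntn6 than in astrocytes and Neurod1 than in stem cells, and Ncor1 was higher in astrocytes than in progenitors.

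Genes with a pattern most like the called ones were sought by Pearson's r of log2(CPM + 1) over the 12 libraries, among 16119 genes. For Notch2 these were Mdm4 (r = 0.89), Haghl (r = 0.888) and Mical2 (r = 0.886). For Dll1 they were Ly6g6d (r = 0.999), Chst5 (r = 0.998) and Gm37783 (r = 0.997), where 8 libraries at or near 0 set most of the value. These are descriptions across libraries that share cell type and depth.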

How the data were processed

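RNA-seq was carried out on 12 libraries of 50 sorted cells from the dentate gyrus, preamplified with SMARTer v4 and made with Nextera XT, without unique molecular identifiers being named. The authors deposited raw counts per gene. Reads were trimmed with AdapterRemoval 2.2.0, those from ribosomal RNA, mitochondrial DNA and PhiX were removed, and the rest were aligned to GRCm38.p4 with HISAT2 2.0.6 and counted on GENCODE M14 with featureCounts (Subread 1.5.1) without strand. Amplified copies of 1 molecule were therefore counted separately, and overlapping genes can share reads. Stem cell columns matched sample titles, whereas those of astrocytes and progenitors carry no replicate name and were lettered a to d. Of 50600 identifiers, 50376 matched GENCODE M21, which gave symbols, positions and exonic lengths. No columns were left unused.

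Pairs of cell types were tested in R 4.3.3 with edgeR 4.0.16 (TMM, quasi-likelihood test, not robust, at least 10 counts in at least 4 of 8 libraries, Benjamini-Hochberg threshold 0.05). The test was also run on simulated counts. With the spread of these libraries, it recovered 1 of 98 4-fold changes for astrocytes against progenitors and 12 of 97 for astrocytes against stem cells. Between progenitors and stem cells it recovered 31 of 100. For 16-fold changes, the respective results were 23 of 99, 49 of 98 and 75 of 99. With a low spread, 100 of 100 4-fold changes were recovered in each comparison. For astrocytes against progenitors with the spread of these libraries, 98 of 13853 genes were changed 4-fold and 99 were changed 16-fold. In the data, 1278 of 14806 genes were called in this comparison. The effect of the share of changed genes on the adjusted p-values was not tested. The recovered numbers are therefore not given as rates for the reported tests. A difference that did not pass is not shown to be absent. Standard errors follow from the log2 fold change and its F statistic, and intervals are approximate. A library at no more than 3 counts was taken as at the floor. Folds against a cell type at the floor divide the mean CPM of the other cell type by the mean floor. They are lower bounds for counting error only and cover neither the spread of libraries nor transcripts lost before sequencing. Alternatives were DESeq2-type size factors, DESeq2 1.42.0, no filter, all 12 libraries in one fit, a minimum of 10 counts in each library, thinned counts, and each library left out (with at least 10 counts in 3 libraries). The named genes were the 10 members, pathway genes called in a comparison (at most 8 each), Slc1a3 and Nes, marker genes beside a result, and the 3 genes most correlated with each called member. Other names were chosen after their values were seen (Dll4, Lfng, Gm20421, A930024N18Rik). The members and lists were chosen with earlier results of these data known. Results for 1 gene of the lists are not reported here.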

Additional observations from a re-analysis of the deposited data

Results flagged for a closer look

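Within the groups of 4 libraries, 28 sets of values of the 10 genes were checked for a single library far from the other 3, by Dixon's ratio of the gap to the range at the 95% level. Chance flags about 1 in 20 such groups. Notch2 in stem cells was highest in library 3 at 253.4 CPM (ratio 0.832), the others being at 114.6 to 137.9 CPM. Jag1 in astrocytes was highest in library c at 34.96 CPM (ratio 0.957), against at most 1.49 CPM in the others. Rbpj in stem cells was lowest in library 2 at 1.824 CPM (ratio 0.867), against 25.0 to 28.6 CPM.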

How the results depend on the processing

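No paired analysis was possible because the astrocyte and progenitor columns carry no replicate numbers. Dll1 kept its direction and its call in all alternatives in which it was tested, and Notch2 kept its direction in all but not its call.

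For astrocytes over progenitors, genes called numbered 1278, and 2431 with DESeq2, 529 without a filter and 287 with at least 10 counts in every library. Leaving out a library gave 719 to 1871. Of the 10 genes, 2 were called, 1 without a filter, 0 with 10 counts in every library, where Dll1 was not tested, and 1 or 2 with a library left out. Of the pathway list, 5 were called, 14 with DESeq2, 2 with 10 counts in every library, 8 with all 12 libraries and 3 to 13 with a library left out.

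For progenitors over stem cells, 1327 genes were called, 2394 with DESeq2, 381 with all 12 libraries and 830 to 1383 with a library left out. Of the 10 genes, 2 were called, 1 without a filter, 1 with 10 counts in every library, 1 with all 12 libraries and 1 or 2 with a library left out. Of the pathway list, 4 were called, 1 with 10 counts in every library, 2 with all 12 libraries and 3 to 5 with a library left out.

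For astrocytes over stem cells, 6 genes were called, 635 with DESeq2, 16 without a filter, 12 with 10 counts in every library, 346 with all 12 libraries and 0 to 8 with a library left out. Pathway genes called were 0, and 2 with DESeq2 or with all 12 libraries.

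Log2 fold changes that turned sign belonged to genes that did not pass the test. With a library left out, Jag1 in astrocytes over progenitors ranged from -4.07 to 0.43 and came to 0.07, 0.12 and 0.10 without astrocyte library a, b or d and to 0.43 without progenitor library a, and in astrocytes over stem cells it ranged from -3.02 (without astrocyte library c) to 1.16. Hes5 in progenitors over stem cells ranged from -0.19 (without progenitor library d) to 0.46. In astrocytes over stem cells, Hes1 ranged from -0.03 (without astrocyte library b) to 0.50, and Hes6 from -1.21 (without astrocyte library b) to 0.86, with -0.25 and -0.06 without stem cell library 2 or 3. Among pathway genes, the Dll3 call against astrocytes was lost without a filter (edgeR adjusted p = 0.082) and without progenitor library c, that of Mfng against astrocytes without progenitor library d (0.051), and those of Cntn1 in 3 of 8 (astrocytes) and 4 of 8 (stem cells) fits with a library left out. With all 12 libraries in one fit, the calls of Dll3 (edgeR adjusted p = 0.052) and Cntn1 (0.11) against stem cells were lost. The causes were not tested. Libraries at or under 3 counts numbered 8 of 12 for Dll1, 3 for Hes6, 2 for Jag1, 1 each for Dner, Rbpj, Hes5 and Hey1, and 0 for Notch1, Notch2 and Hes1.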
